A study of Mus musculus with 2 samples.

Results

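The genes described here encode 9 DNA-binding regulators of lymphocytes or their antagonists: Id1, Id2, Id3, Tcf3, Tcf4, Tcf12, Lef1, Satb1 and Tcf7. They were chosen by name from families that set T cell fate, and were kept where a probe set carried that gene symbol alone in the platform annotation. Of the 9 genes, 8 had such a probe set, with 17 probe sets in all, out of 17097 genes and 28898 probe sets with a single symbol. The annotation used paired no probe set with the symbol Tcf7, and unlisted probe sets are unnamed here, so the Tcf7 transcript is not analysed.

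Both arrays held RNA of CD4 T cells from 6-week-old C57/Bl6 mice that carry a Foxp3-eGFP reporter, which marks regulatory T cells. Sorted naive cells without the reporter's signal spent 48 hours with soluble antibody to CD3, the signalling part of the T cell receptor, and with antigen-presenting cells (APC). One group met APC of OX40L-transgenic mice (OX40L-Tg APC), and the other met APC of wild type mice (Wt APC). All APC were splenocytes without T cells, treated with mitomycin C at 50 ug/ml to stop their division, and living CD4 T cells were sorted again before RNA was taken. The sources used here do not give the promoter or expressing cells of the transgene, or the number of animals or wells behind each RNA. There was 1 array for each group, so no value has a replicate, no difference was tested, and the number of arrays limits the precision.

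The E proteins, encoded by Tcf3, Tcf4 and Tcf12, are basic helix-loop-helix factors that bind DNA as dimers at E-boxes, sites with the letters CANNTG. The Id proteins share the helix-loop-helix but lack the basic part that touches DNA, so a dimer of an Id protein and an E protein does not bind. In mouse T cells the balance of the 2 families steers development in the thymus and the choice between effector and memory fates. Tcf7 and Lef1 encode the HMG-box factors TCF1 and LEF1, which keep naive and memory T cells in their state and can use beta-catenin as a partner. Satb1 encodes an organizer of chromatin loops that is abundant in thymocytes and, in mouse Th2 cells, acts at the type 2 cytokine locus.

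The start regions of Id2, Id3, Tcf12 and Satb1 are shown because E proteins act at E-boxes and every probe set of these 4 genes above background differed by at least 0.30 on the log2 scale, Id2 and Satb1 upward and Id3 and Tcf12 downward. Tcf4, at the edge of detection, is left out of this set. Each window runs from 250 bases before the RefSeq transcript start to 50 bases after it, 5′ to 3′ on the gene's strand, with E-boxes in capitals. For Tcf12 and Satb1, which have 3 and 5 such windows, the one with the most E-boxes is given.
Id2, GRCm38.p6, chr12:25096043-25096342, minus strand: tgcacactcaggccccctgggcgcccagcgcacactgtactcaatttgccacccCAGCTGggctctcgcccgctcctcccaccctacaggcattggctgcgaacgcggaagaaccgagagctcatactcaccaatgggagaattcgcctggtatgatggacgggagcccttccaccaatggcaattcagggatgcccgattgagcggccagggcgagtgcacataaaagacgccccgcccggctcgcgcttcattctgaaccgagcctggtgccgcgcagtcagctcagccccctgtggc
Id3, GRCm38.p6, chr4:136143572-136143871, plus strand: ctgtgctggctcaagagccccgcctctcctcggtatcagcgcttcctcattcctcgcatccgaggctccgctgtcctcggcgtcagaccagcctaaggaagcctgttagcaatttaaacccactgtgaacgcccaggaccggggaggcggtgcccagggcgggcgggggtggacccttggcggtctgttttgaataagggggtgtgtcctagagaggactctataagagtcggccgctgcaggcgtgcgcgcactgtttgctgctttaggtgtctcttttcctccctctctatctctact
Tcf12, GRCm38.p6, chr9:72111152-72111451, minus strand: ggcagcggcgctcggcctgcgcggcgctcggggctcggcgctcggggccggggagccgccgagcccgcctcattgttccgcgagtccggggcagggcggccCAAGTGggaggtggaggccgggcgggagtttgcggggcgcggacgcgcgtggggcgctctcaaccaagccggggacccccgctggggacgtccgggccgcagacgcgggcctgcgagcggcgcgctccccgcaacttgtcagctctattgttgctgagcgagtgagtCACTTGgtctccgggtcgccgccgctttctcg
Satb1, GRCm38.p6, chr17:51826539-51826838, minus strand: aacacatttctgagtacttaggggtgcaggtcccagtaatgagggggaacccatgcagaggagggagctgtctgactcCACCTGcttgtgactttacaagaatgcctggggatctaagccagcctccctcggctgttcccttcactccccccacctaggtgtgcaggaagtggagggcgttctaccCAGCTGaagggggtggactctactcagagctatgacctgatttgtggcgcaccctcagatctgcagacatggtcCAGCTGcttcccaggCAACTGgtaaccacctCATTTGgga

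The Id3 window held 0 E-boxes, that of Id2 held 1 and that of Tcf12 held 2. The 3 windows of Tcf12 ranged from 1 to 2. For Tcf12 and Satb1 the count is the highest of several windows by choice, so it cannot be set beside those of Id2 and Id3. The Satb1 window held 5 E-boxes, whereas the 5 windows of that gene ranged from 0 to 5. Such a match is common, since 72.3% of 32851 mouse windows of this length held at least 1 CANNTG, with a median of 1. The letters CTTTGA, the core of the site bound by LEF1 and TCF1, were found in 0 of these 4 windows on either strand, against 5257 of all 32851. The EGR-type letters GCGNGGGCG were in 0 of the 4, against 5.55% of all windows. The letters GGCGCC, bound by SMAD proteins at some targets of bone morphogenetic protein, were in the Id2 window, against 11.9% of all windows. A Satb1 window that is not shown, with 0 E-boxes, held 2 matches of GCGNGGGCG and 2 of GGCGCC. Both strands were searched for each motif, and the GGCGCC of Id2 does not overlap its E-box. Neither a match nor its absence was tied to the differences below.

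Among the Id genes, Id2 read higher and Id3 lower with OX40L-Tg APC. Id3, whose product restrains E proteins downstream of the T cell receptor in mouse thymocytes, read 161 units with OX40L-Tg APC and 303 units with Wt APC. It had 1 probe set listed under its symbol alone, so no second reading is given here. The log2 difference, OX40L-Tg APC minus Wt APC, was -0.91, which is 1.88-fold lower. Of 10541 genes above the floor, the median intensity of each array, 1.44% were as low as Id3 or lower.

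Id2, which supports effector differentiation of mouse T cells, was abundant on both arrays. Its brighter probe set read 1218 units with OX40L-Tg APC and 910.4 units with Wt APC, a log2 difference of 0.42 or 1.34-fold. A second probe set read 661 units with OX40L-Tg APC and 456 units with Wt APC, a log2 difference of 0.53 or 1.45-fold. Both readings were therefore higher with OX40L-Tg APC, and both differences were below 1.5-fold. The third probe set of Id2 read 12.2 units with OX40L-Tg APC and 12.9 units with Wt APC, below the floor on both arrays. Id1, best known as a target of bone morphogenetic protein signals, read 29.1 units with OX40L-Tg APC and 14.0 units with Wt APC. Its log2 difference was 1.06, but both values were below the background level, 34.8 units with OX40L-Tg APC and 23.1 units with Wt APC. That level is the 95th percentile of 28 genes of other organs on each array, and no fold is given for a gene below it on both. The levels differ mainly through 1 of these organ genes, Cela1, which read 42.4 units with OX40L-Tg APC and 23.3 units with Wt APC. The 29.1 units of Id1 were above the lower level, that of the Wt APC array.

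The E protein genes with clear signal, Tcf3 and Tcf12, read lower with OX40L-Tg APC in each of their 5 probe sets. Tcf12, which encodes HEB, read 376 units with OX40L-Tg APC and 499 units with Wt APC, a log2 difference of -0.41. Its second probe set read 278 units with OX40L-Tg APC and 386 units with Wt APC, a log2 difference of -0.47. HEB pairs with the products of Tcf3 in mouse thymocytes, and its 2 readings were 1.33-fold and 1.39-fold lower.

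Tcf3, which encodes the splice forms E12 and E47, read 429.8 units with OX40L-Tg APC and 497 units with Wt APC in its brightest probe set, a log2 difference of -0.21. The second read 174 units with OX40L-Tg APC and 214 units with Wt APC, a log2 difference of -0.30. The dimmest, marked in its ID as open to cross-hybridisation, read 39.0 units with OX40L-Tg APC and 50.2 units with Wt APC, a log2 difference of -0.37. The 3 differences had one sign and were all under 1.5-fold.

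Tcf4, which encodes E2-2 and is needed for plasmacytoid dendritic cells, was at the edge of detection. Its brightest probe set read 34.1 units with OX40L-Tg APC, under the background level there, and 25.7 units with Wt APC, above it, so no fold is given. The others read 23.9 and 19.7 units with OX40L-Tg APC and 20.1 and 16.6 units with Wt APC. These 2 were below background on both arrays, and the brightest differed by 0.41 on the log2 scale. The readings of 34.1 and 23.9 units with OX40L-Tg APC were above the lower level of the Wt APC array, 23.1 units.

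**Figure D1:**
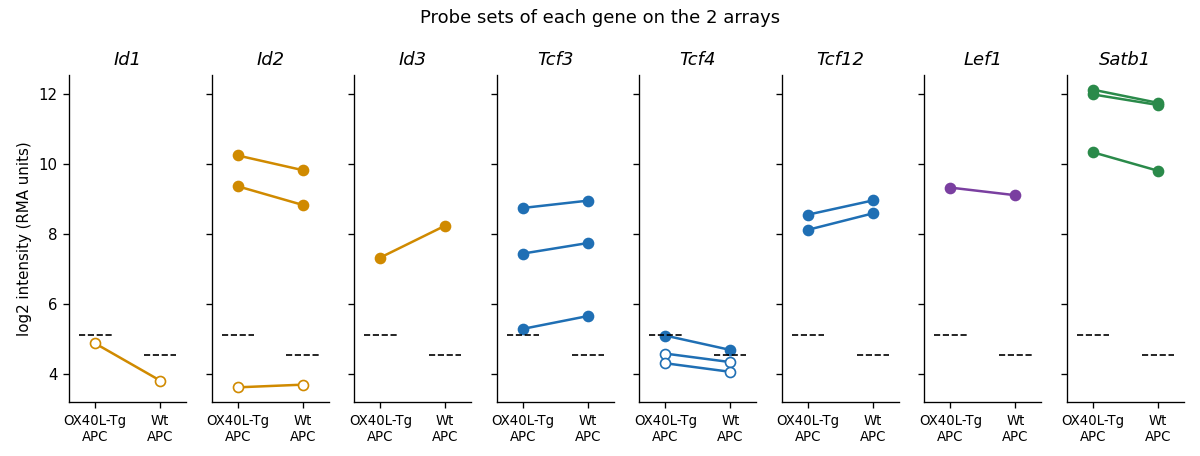
Log2 intensity (RMA units) of every probe set of the 8 genes on the OX40L-Tg APC array and the Wt APC array, joined by a line for each probe set, with the background level of each array dashed and probe sets below it on both arrays open. Lines of Id3, Tcf3 and Tcf12 are lower on the OX40L-Tg APC side, those of Lef1 and Satb1 and the 2 bright ones of Id2 are higher there, and heights of different probe sets cannot be compared.

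Satb1 read higher with OX40L-Tg APC in all 3 of its probe sets. They read 4498, 4095 and 1298 units with OX40L-Tg APC, against 3466, 3322 and 900.1 units with Wt APC. The log2 differences were 0.38, 0.30 and 0.53, each under 1.5-fold. Lef1 had 1 probe set, which read 644 units with OX40L-Tg APC and 553 units with Wt APC. Its log2 difference of 0.22 is 1.16-fold, and 18.1% of genes above the floor were as high as Lef1 or higher.

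**Figure D2:**
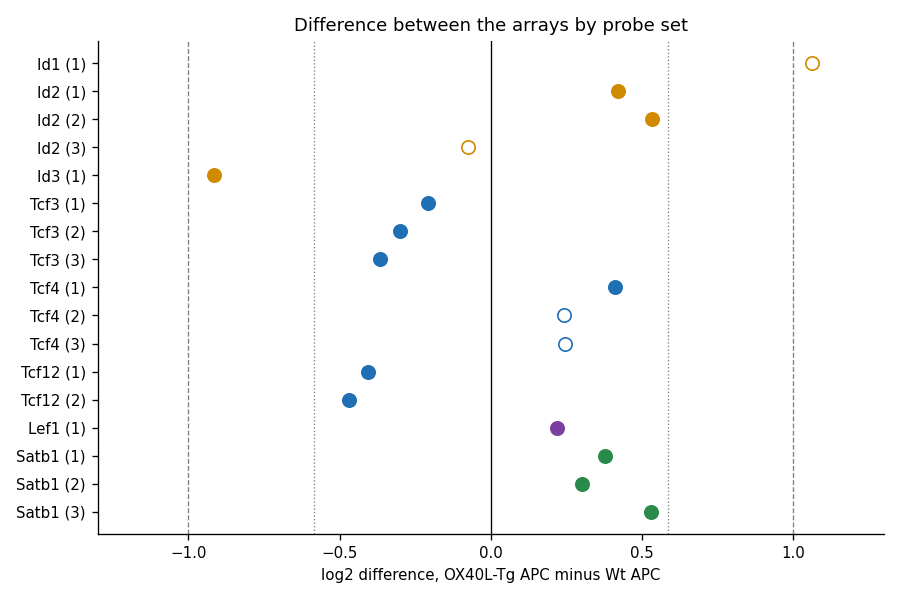
Log2 difference in intensity, OX40L-Tg APC minus Wt APC, for each of the 17 probe sets, numbered from the brightest within a gene, with open circles for those below background on both arrays. Dotted lines mark 1.5-fold and dashed lines 2-fold; Id3 at -0.91 and Id1 at 1.06 lie beyond the dotted lines, and the other 15 probe sets lie between them.

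Counted as genes by their brightest probe set, 0 of 8 were lower with OX40L-Tg APC by 2-fold or more, against a background of 1.17% of genes above the floor. The reverse difference of that size was seen in 1 of 8, Id1 with both values below background, against 1.56%. By 1.5-fold or more, 1 of 8 was lower, Id3, against 3.36%, and 1 of 8 was higher, again Id1, against 3.85%. Among the 7 genes above the background level on at least 1 array, 0 were 2-fold lower and 0 were 2-fold higher, beside 1.33% and 1.74% of 8973 genes. The median log2 difference of the 7 genes was 0.22, with 4 higher and 3 lower, beside 0.02 over all 8973 genes, with 4834 higher and 4137 lower. Tcf4, counted among the 4 higher, was above background only on the Wt APC array, where it read lower. The median of 0.22 is the value of Lef1 and depends on Tcf4 being counted. With Id1 the median was 0.30 over 8 genes, with 5 higher and 3 lower, beside 5687 higher and 4851 lower of 10541. The differences had an SD of 0.39 over all genes above the floor, and Tcf3, Lef1 and Satb1, 3 of the 8, differed by less than that.

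**Figure D3:**
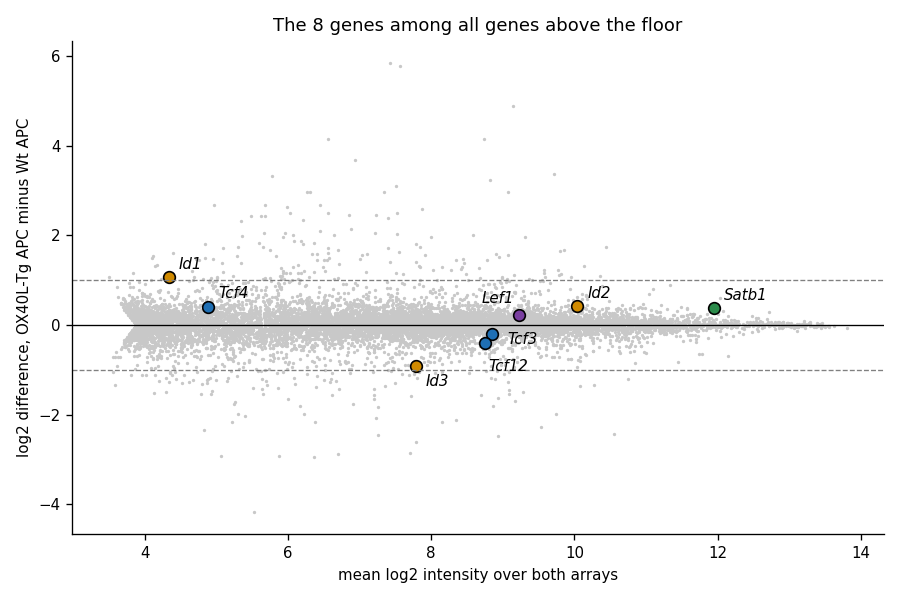
Log2 difference, OX40L-Tg APC minus Wt APC, against the mean log2 intensity for 10541 genes above the floor (grey), with the 8 genes named and 2-fold dashed. Id3 lies low among genes of its level at -0.91, whereas Tcf3, Tcf12, Lef1, Id2 and Satb1 lie between -0.41 and 0.42.

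Probe sets of one gene gave the single view of technical scatter on these arrays, which holds no spread between cultures or mice. In 3483 genes with 2 or more probe sets above background, the median range of the log2 differences within a gene was 0.14. That range was 0.06 in Tcf12, 0.11 in Id2, 0.16 in Tcf3 and 0.23 in Satb1. Of those genes, 66.1% had differences of one sign, as these 4 did. The share of genes with every difference as low as the highest of the Tcf12 probe sets was 3.73%, and for Tcf3 it was 9.10%. The share with every difference as high as the lowest of the Id2 probe sets was 3.24%, and for Satb1 it was 5.54%.

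Similarity of pattern was measured as the distance of the log2 values over the 2 arrays. Of the genes described here that were above background, Id3 had the largest difference. Ppm1h, Gfod1 and Pik3r5 lay nearest to Id3, at 0.08 each, a search added after the values were seen. The rule itself took Id1, whose 1.06 rests on values below background and has no rank, and Antxr1, Cass4 and Ssh3 lay 0.16 to 0.26 from it.

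Other helix-loop-helix genes were mostly below background. Of 13 with a value, 10 were below background on both arrays, of which Id4, Tal1 and Twist1 are given as examples. Lyl1, a partner of E proteins in mouse blood progenitors, read 76.5 units with OX40L-Tg APC and 42.0 units with Wt APC, 1.82-fold higher. Bhlhe40, a stress- and receptor-induced repressor, read 3415 units with OX40L-Tg APC and 2889 units with Wt APC, a log2 difference of 0.24. Hey1, a Notch target, read 19.6 units with OX40L-Tg APC and 23.8 units with Wt APC, and no fold is given. Of the 5 above the floor, 0 passed 2-fold in either direction, with a median of 0.24. Of all genes above the floor, 1.56% were past 2-fold higher and 1.17% past 2-fold lower.

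Inducers and turnover factors of the Id and E proteins had a median log2 difference of -0.06 over 18 genes above the floor, and ran from -1.10 to 1.44. Egr2, an early growth response factor of the family known to induce Id3 in mouse thymocytes, read 536 units with OX40L-Tg APC and 197 units with Wt APC. It was 2.71-fold higher. Egr1, of the same family, read 726 units with OX40L-Tg APC and 821 units with Wt APC, a log2 difference of -0.18. It was named after its values were seen, and a link of either gene to the Id3 reading was not tested. Acvrl1, a receptor of bone morphogenetic proteins, read 52.3 units with OX40L-Tg APC and 112 units with Wt APC, 2.15-fold lower. Egr3 read 23.3 units with OX40L-Tg APC, below background, and 29.3 units with Wt APC. Egr2 and Acvrl1 were the 2 of 18 past 2-fold, 1 in each direction, beside 1.56% higher and 1.17% lower of all genes above the floor. Usp1, which removes ubiquitin from Id proteins, differed by 0.04, and Skp2, a ligase subunit linked to loss of E proteins, by 0.09; both were named after their values were seen.

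Genes linked to E proteins in mouse lymphocytes had a median of 0.12 over 9 above the floor, with 6 higher and 3 lower. Over all 10541 genes above the floor the median was 0.02, with 5687 higher and 4851 lower. Cdkn1a, the cell cycle inhibitor p21 and an E47 target in cell lines, read 1915 units with OX40L-Tg APC and 895 units with Wt APC, 2.14-fold higher. It was the 1 gene of the 9 past 2-fold, beside 1.56% higher and 1.17% lower of all genes above the floor. Socs3, a feedback inhibitor of cytokine receptors, read 269 units with OX40L-Tg APC and 139.9 units with Wt APC, a log2 difference of 0.94. Sox4, a factor of early lymphocytes, differed by -0.76, but by -0.04 in its other probe set. Rag1, Rag2 and Ptcra, targets in thymocytes named after their values were seen, were below background on both arrays.

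Partners of LEF1 and TCF1 in the beta-catenin pathway hardly differed, with a median of -0.01 over 27 genes above the floor. Of these, 0 were past 2-fold in either direction, beside 1.56% higher and 1.17% lower of all genes above the floor. Among the Groucho corepressors, which bind TCF factors when beta-catenin is absent, 2 differed in opposite directions. Tle4 read 122 units with OX40L-Tg APC and 221 units with Wt APC, 1.81-fold lower. Tle1 read 55.8 units with OX40L-Tg APC and 32.0 units with Wt APC, 1.74-fold higher. Bcl9l, an adaptor of beta-catenin, differed by -0.31. Axin2, a standard readout of beta-catenin signalling, read 37.7 units with OX40L-Tg APC and 39.6 units with Wt APC, and was named after its values were seen. The relative Tcf7l1 read 50.2 units with OX40L-Tg APC and 54.6 units with Wt APC, and Tcf7l2 was below background; both were also named after their values were seen.

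Genes linked to TCF1 and LEF1 in mouse T cells were mostly lower, although Lef1 itself was not. Among 15 above the floor, 12 were lower, 5 of them past 2-fold, and 1 was higher by more than 2-fold, with a median of -0.72. Over all 10541 genes above the floor 4851 were lower, 1.17% were past 2-fold lower and 1.56% past 2-fold higher, and the median was 0.02. The list was chosen with earlier results of these data known, so its direction is not independent evidence. Klf2, a factor of quiescence and homing, read 65.0 units with OX40L-Tg APC and 358 units with Wt APC. Eomes, a T-box factor of memory cells, read 65.1 units with OX40L-Tg APC and 221 units with Wt APC. Slamf6, a surface receptor of memory-like T cells, read 83.4 units with OX40L-Tg APC and 262 units with Wt APC. The gene past 2-fold in the other direction was Gata3, a Th2 factor that TCF1 can induce in mouse cells, with a log2 difference of 1.16, named after its value was seen.

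Among genes linked to Satb1 the median was 0.13 over 13 above the floor, with 3 past 2-fold upward and 0 downward. Over all 10541 genes above the floor the median was 0.02, with 1.56% past 2-fold higher and 1.17% past 2-fold lower. The 3 linked genes past 2-fold were cytokines of the type 2 locus, at which Satb1 is known to act in mouse Th2 cells. The list was chosen with earlier results of these data known, so these cytokines are not independent evidence on Satb1. Il4 read 2711 units with OX40L-Tg APC and 262 units with Wt APC, 10.4-fold higher. Il13 read 536 units with OX40L-Tg APC and 62.1 units with Wt APC, 8.62-fold higher. Il5 read 104 units with OX40L-Tg APC and 19.3 units with Wt APC, the second below background, so it was at least 4.51-fold higher. Rad50, the neighbour that holds the control region of that locus, differed by 0.75. Pdcd1, the inhibitory receptor that Satb1 restrains in mouse T cells, differed by -0.53; it and Rad50 were named after their values were seen.

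**Figure D4:**
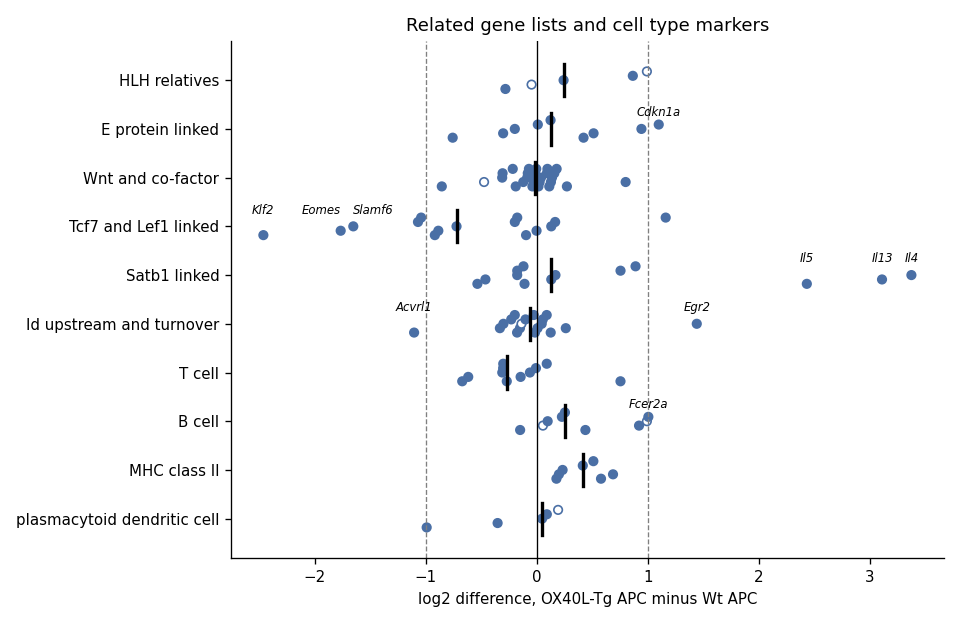
Log2 difference, OX40L-Tg APC minus Wt APC, of the genes above the floor on 6 related lists and 4 marker lists, with the median of each list as a black bar, 2-fold dashed and open circles for genes below background on both arrays. The list linked to Tcf7 and Lef1 has its median at -0.72, and the 3 cytokines linked to Satb1 lie beyond 2 on the log2 scale.

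Marker genes of other cells were set beside these values, since the sorted cells came from mixed cultures. The sums given for each list include genes below background and are led by the brightest probe sets. They can be compared between the arrays but not between lists. T cell markers were above background in 11 of 11 genes, with summed levels of 21615 units with OX40L-Tg APC and 25109 units with Wt APC and a median difference of -0.27. Their differences ran from -0.67 in Cd3e to 0.75 in Trat1. B cell markers had a median of 0.25, with summed levels of 1639 units with OX40L-Tg APC and 1102 units with Wt APC. Of their 11 genes, 4 were below background on both arrays, the factors Pax5 and Ebf1 among them. Ebf1 read 34.6 units with OX40L-Tg APC, just under the level of 34.8 units there, and 17.4 units with Wt APC. Blk, above background, went the other way from the median, with a difference of -0.15. Fcer2a, the low-affinity IgE receptor, read 519.9 units with OX40L-Tg APC and 259 units with Wt APC, 2.01-fold higher. Cd79b, a chain of the B cell receptor, read 313 units with OX40L-Tg APC and 166 units with Wt APC, 1.89-fold higher, and Cd22 was 1.35-fold higher. MHC class II genes, typical of APC, had a median of 0.41, with summed levels of 3811 units with OX40L-Tg APC and 2879 units with Wt APC. B cells and dendritic cells also express Tcf4, Id2 and Tcf3, and the part of such cells in the readings of these genes was not tested.

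Markers of plasmacytoid dendritic cells summed to 195 units with OX40L-Tg APC and 228 units with Wt APC, and of conventional dendritic cells to 698 units with OX40L-Tg APC and 209.8 units with Wt APC. Batf3, which activated T cells can also express, held 574 units of that sum with OX40L-Tg APC and 95.1 units with Wt APC, while Itgax, Xcr1 and Zbtb46 were below background. Flt3, a growth factor receptor of dendritic cells and their progenitors, was above background at 43.3 units with OX40L-Tg APC and 46.1 units with Wt APC. All 9 macrophage and monocyte markers with a value were below background, with sums of 130.0 units with OX40L-Tg APC and 113 units with Wt APC. Erythroid markers summed to 245 units with OX40L-Tg APC and 1208 units with Wt APC. Hba-a1, an alpha globin gene, held 207 units of that sum with OX40L-Tg APC and 1161 units with Wt APC, 5.60-fold lower, with log2 differences of -2.49 and -2.45 in its 2 probe sets, and Alas2, Slc4a1 and Klf1 were below background. Of the CD8 genes, Cd8b1 read 239 units with OX40L-Tg APC and 191 units with Wt APC, and the 2 summed to 270.2 units with OX40L-Tg APC and 219 units with Wt APC. NK cell markers summed to 66.1 units with OX40L-Tg APC and 66.0 units with Wt APC, and 2 of 3, Ncr1 and Klrb1c, were below background. Granulocyte markers summed to 87.1 units with OX40L-Tg APC and 100.1 units with Wt APC, and 5 of 6 were below background. The part of these cells in the values of the 8 genes was not tested. One protocol text among the labels names adipose tissue as the source of RNA, and all 4 adipocyte markers with a value, Adipoq and Fabp4 among them, were below background on both arrays. In RNA of a whole sort, fewer cells of a type and less RNA per cell cannot be told apart.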

How the data were processed

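RNA was hybridised to 2 Affymetrix HT MG-430 PM arrays, 1 for each group. The authors deposited linear intensities for each probe set, which they had computed by RMA (version not stated) per the submitters' processing notes. They ran from 4.69 to 14686 units. RMA equalises the arrays, so a change in total RNA leaves no trace, and it draws low values together. Of 45141 probe sets, 28898 had 1 gene symbol in the platform annotation, 551 had several and named no gene, and 15692 were unlisted and are unnamed here. Entrez numbers of 28689 were found in the RefSeq table of GRCm38.p6, which changed 0 symbols; promoter sequences are RefSeq's of that build, and 7 of the 9 genes had a window that was used.

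Log2 was taken of the deposited intensities, and Wt APC was subtracted from OX40L-Tg APC. A gene took its probe set with the highest mean and was above the floor if it reached an array's median, 14.7 units, on at least 1 array. As each group has 1 array, nothing was tested. Sizes of 2-fold and 1.5-fold served as thresholds. The text names all probe sets of the 9 genes, the 3 genes of each related list with the largest difference above background, the 3 nearest to the leading gene, and others where it says so; marker genes are given as examples. The genes and lists were chosen with earlier results of these data known. Lowess (span 0.3) came from statsmodels 0.14.6, and figures from matplotlib 3.10.9. Other calculations used pandas 2.3.3 and numpy 2.4.6 in Python 3.11.15. Of these, the log2 difference alone was run on simulated data.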

Additional observations from a re-analysis of the deposited data

How the results depend on the processing

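Under the 3 alternatives that rescale the values (lowess, centring on the median and a pseudocount of 16), 0 of 48 probe set differences changed sign, and 47 kept their side of 2-fold. The other alternatives are filters or choices of probe set, which leave each probe set's value as it is and can move the counts alone. The exception was Id1, at 0.59 with the pseudocount. The count of genes at least 2-fold higher, Id1 alone, became 0 with the pseudocount, with the floor at the 75th percentile, with values above background on both arrays, and with 1 background level for both arrays, the last chosen after seeing the data. The count at least 1.5-fold higher became 0 under the last 3 of these. The counts of genes at least 2-fold and 1.5-fold lower stayed at 0 and 1 under all 9. With 1 background level, the higher one of 34.8 units, 6 of the 8 genes were above it in place of 7, as Tcf4 fell below it. The lower level of 23.1 units was not tried on both arrays. Lowess moved the differences by -0.03 to 0.01 and centring by 0.02. No paired analysis was possible because each group has 1 array. Signal over background limits what can be said of Id1 and Tcf4, and Id3 and Lef1 rest on 1 probe set each.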
